A study of Drosophila melanogaster with 21 samples.

Results

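The Drosophila genes Obp44a (FBgn0033268), CG4793 (FBgn0028514), CG17930 (FBgn0038416), Ac78C (FBgn0024150), rpk (FBgn0022981) and cGlr2 (FBgn0050424), were followed because their RNA levels lay far apart between cells depleted of one YTH reader of m6A and cells depleted of the other. They are 6 of the 17558 gene identifiers in the tables and 6 of the 8360 genes with enough counts to be tested. They were picked from the comparison of the 2 reader depletions, so the levels in the reader depletions and in the controls beside them are given as a description without a test. Tests of these genes are given only for depletions of the m6A writers, which were not part of the comparison used for the choice. These tests are not fully independent of it. They share the control libraries and the fit over all 21 libraries, and the genes were chosen with earlier results of these data known.

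RNA was sequenced from S2R+ cells, a line derived from Drosophila embryos with features of blood macrophages, kept at room temperature. There were 7 groups of 3 libraries each. They were a control, depletion of Ime4 (Mettl3), depletion of CG7818 (Mettl14), depletion of Ime4 and CG7818 together, depletion of Fl2d, depletion of YT521 (Ythdc1) and depletion of CG6422 (Ythdf). The agent used for depletion and the treatment of the control cells are not stated in the labels. The genotype entry of the double depletion names Ime4 alone and its title both genes, and groups here follow the titles. The labels do not say that the libraries of a group came from separate cultures, so p-values measure the spread between these libraries, which may be technical.

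The modified base m6A is placed on messenger RNA by a complex in which Mettl3 is the catalytic subunit, Mettl14 its partner and Fl2d a cofactor needed for activity. YTH-domain proteins bind the modified base. Ythdc1 is the nuclear reader of the fly, linked to splicing, and Ythdf is the cytoplasmic one. Among the 6 genes, Obp44a belongs to the odorant-binding proteins, small secreted carriers of hydrophobic ligands, and in the fly brain it is known from glia. Ac78C is an adenylyl cyclase, which makes the second messenger cAMP. The gene rpk (ripped pocket) encodes a subunit of the DEG/ENaC family of sodium channels. cGlr2 is a cGAS-like receptor, a sensor that makes a cyclic dinucleotide and so activates Sting, the adaptor of an antiviral response.

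The depleted readers were low in their own libraries. Ythdc1 was at 391 ± 15 CPM (counts scaled to equal library totals; SD, n = 3) in controls, at 86.7 ± 14.9 after YT521 depletion and at 401 ± 14.3 after CG6422 depletion. Ythdf was at 98.2 ± 7.04 CPM in controls, at 25.3 ± 7.04 after CG6422 depletion and at 99.8 ± 2.10 after YT521 depletion. In the double depletion Mettl3 was at 8.66% and Mettl14 at 9.57% of the control mean. Mettl3 was at 9.35% after Ime4 depletion, and Mettl14 at 8.98% after CG7818 depletion. In the Fl2d libraries fl(2)d was at 17.3% of the control mean, and the readers Ythdf and Ythdc1 were at 80.2% and 130%. The fl(2)d transcript was at 144% after Ime4, 142% after CG7818 and 140% after the double depletion. It was at 120% after YT521 and 93.6% after CG6422 depletion. Libraries held 20214568 to 28296393 gene counts. The mitochondrial large ribosomal RNA made up 5.61% to 8.62% of gene counts in 19 libraries but 1.93% in the first Fl2d library and 2.89% in the second YT521 library. Differences of the 6 genes that move by over 0.2 on the log2 scale, or whose call changes, without those 2 are given both ways. Of 12 plasmatocyte (macrophage) markers none was at 0 in all libraries. Pxn and crq were high (means of 193 and 211 CPM), as were drpr, ush and srp (144, 138 and 85.6 CPM). The phagocytosis receptors NimC1 and eater were near 0 (means of 0.121 and 0.466 CPM). Hml, Col4a1, He and vkg were low (means of 2.04, 1.67, 3.72 and 3.98 CPM). Most of the summed CPM of these markers came from Pxn, crq, drpr, ush and srp.

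All 6 genes were of low to moderate abundance. Per kilobase of exon, control levels were 6.0 CPM for CG4793, 2.78 for Obp44a, 1.10 for CG17930, 0.821 for Ac78C, 0.489 for cGlr2 and 0.218 for rpk. The counts behind single values were as low as 6 for Obp44a and 12 for both rpk and cGlr2, and as high as 853 for CG4793. By mean CPM the 6 genes stood between the percentiles 10.8 (rpk) and 34.0 (CG4793) of the genes tested.

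Between the 2 reader depletions, Obp44a, CG4793, CG17930 and Ac78C were higher after YT521 depletion, and rpk and cGlr2 were higher after CG6422 depletion. The libraries of the 2 groups did not overlap for any of the 6 genes, a separation that their choice builds in. Over all genes tested the groups did not overlap for 28.4%, and 12.9% passed an adjusted p of 0.05. The log2 difference, YT521 minus CG6422, was 1.97 for Obp44a, 1.71 for CG4793, 1.68 for CG17930, 1.35 for Ac78C, -1.37 for rpk and -1.19 for cGlr2. Without the 2 libraries low in mitochondrial ribosomal RNA these differences were 1.85, 1.72, 1.64, 1.46, -1.31 and -1.42. In bulk RNA, fewer cells of a type and less RNA per cell cannot be told apart.

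The same 3 control libraries are the reference for both readers, so the values of each reader are set side by side. After YT521 depletion, the log2 difference from control was 0.35 for Obp44a, 0.88 for CG4793, 1.01 for CG17930, 0.01 for Ac78C, 0.11 for rpk and -0.15 for cGlr2. After CG6422 depletion it was -1.63 for Obp44a, -0.83 for CG4793, -0.67 for CG17930, -1.34 for Ac78C, 1.47 for rpk and 1.04 for cGlr2. YT521 libraries did not overlap controls for 3 of the 6 genes, namely Obp44a, CG4793 and CG17930 (27.0% of all genes tested). CG6422 libraries did not overlap controls for all 6 (37.2% of all genes tested). The adjusted p was under 0.05 for 6.52% of all genes after YT521 depletion and for 19.1% after CG6422 depletion. Without the 2 libraries low in mitochondrial ribosomal RNA the YT521 differences from control were 0.21 for Obp44a, 0.88 for CG4793, 0.96 for CG17930, 0.11 for Ac78C, 0.16 for rpk and -0.39 for cGlr2. YT521 libraries overlapped the controls for Ac78C, rpk and cGlr2, while Obp44a, CG4793 and CG17930 lay above control after YT521 depletion and below it after CG6422 depletion. The summed plasmatocyte markers were at 701 to 763 CPM in CG6422 libraries, 821 to 863 CPM in YT521 libraries and 780 to 841 CPM in controls, and their part in these differences was not tested.

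**Figure D1:**
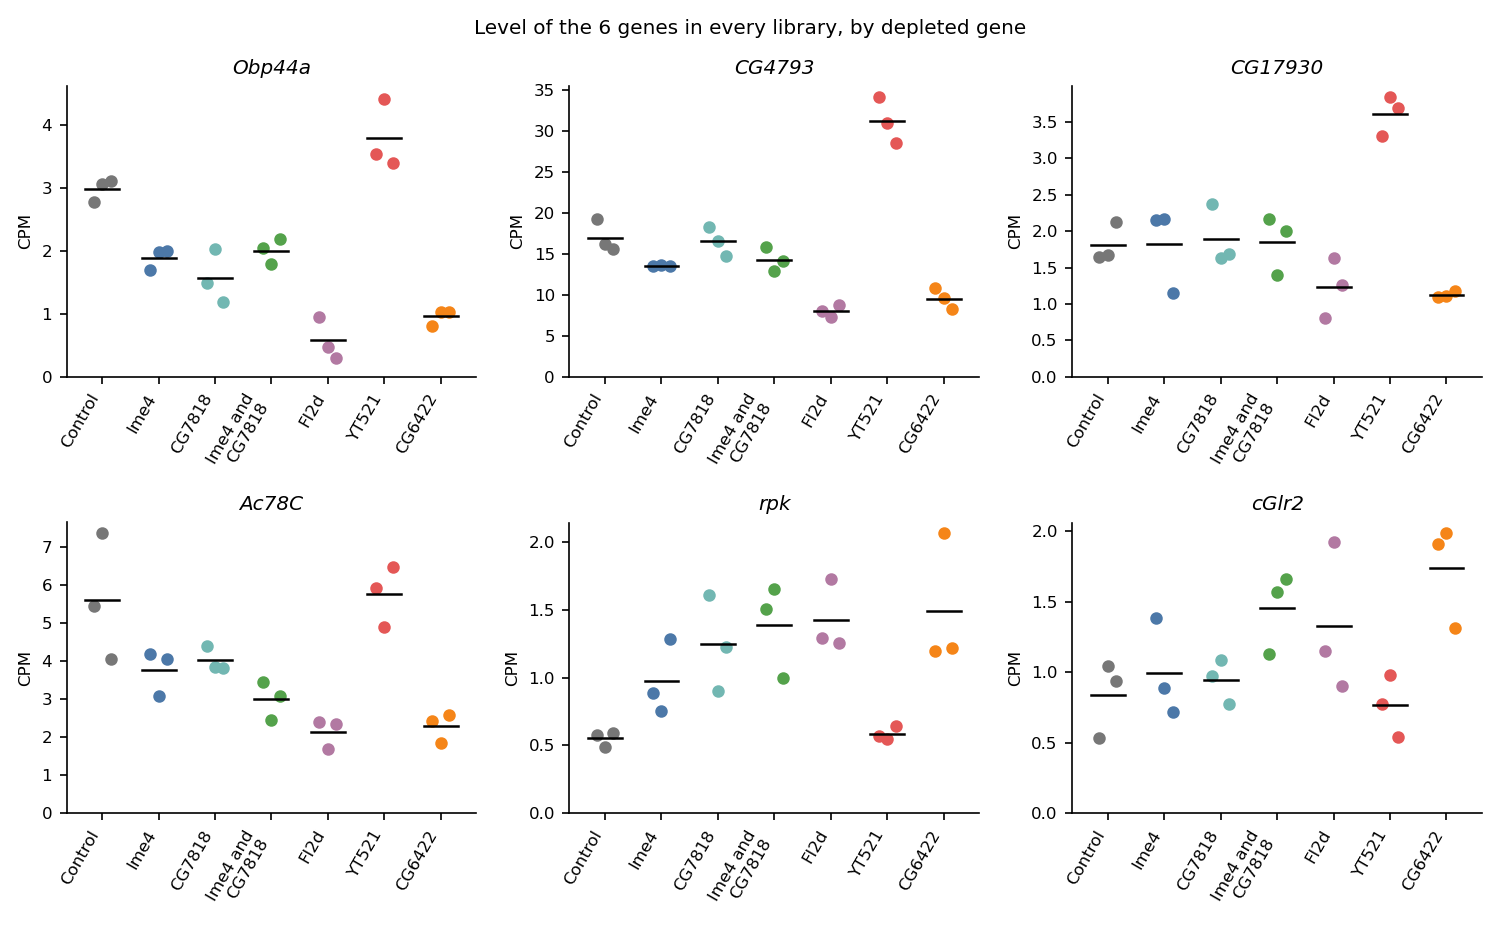
Each panel plots CPM (linear axis from 0) of one gene, with 1 point per library and a black line at the mean of each group of 3. Obp44a, CG4793, CG17930 and Ac78C are higher in the YT521 libraries than in the CG6422 libraries, and rpk and cGlr2 are lower.

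Obp44a was at 2.79, 3.06 and 3.11 CPM in the controls, at 3.55, 4.42 and 3.41 CPM after YT521 depletion and at 0.812, 1.03 and 1.03 CPM after CG6422 depletion. All YT521 libraries were above all controls and all CG6422 libraries were below them. It was at 0.956, 0.480 and 0.302 CPM after Fl2d depletion, at 1.69, 1.99 and 2.00 CPM after Ime4 depletion, at 1.48, 2.03 and 1.18 CPM after CG7818 depletion and at 2.05, 1.79 and 2.19 CPM after the double depletion. Every library of the 4 writer groups was below every control. Obp44a fell after Fl2d depletion (log2 difference -2.35, SE 0.25, adjusted p = 3.12e-07, edgeR quasi-likelihood test, adjusted by Benjamini-Hochberg over all genes). Without the 2 libraries low in mitochondrial ribosomal RNA the difference was -2.92. It fell after CG7818 depletion by 0.93 on the log2 scale (SE 0.20, adjusted p = 0.0135), a call lost without CG7818 replicate 1, CG7818 replicate 3 or Control replicate 2 (adjusted p = 0.0683, 0.0932 and 0.0616). After Ime4 depletion the difference was -0.66 (adjusted p = 0.0581) and after the double depletion -0.58 (adjusted p = 0.0567), neither of which passed. Without the 2 libraries low in mitochondrial ribosomal RNA both passed (-0.67 and -0.58, adjusted p = 0.0133 and 0.0161). Both also passed with no filter on low counts (adjusted p = 0.0209 and 0.0326) and with the libraries of the comparison alone (adjusted p = 0.0182 and 0.0162). Summed CPM of 7 glial markers was 49.97 to 53.7 in controls, 30.5 to 43.7 in Fl2d libraries, 44.6 to 47.3 in Ime4 libraries, 51.1 to 54.1 in CG7818 libraries and 45.7 to 47.3 in the double depletion. It was 44.1 to 50.1 in YT521 libraries and 41.8 to 45.6 in CG6422 libraries, and the part of these markers in the differences of Obp44a was not tested. The glial identity gene repo and the astrocyte gene alrm were near 0 (means of 0.0237 and 0.0666 CPM), and most of that sum came from moody, at 34.5 CPM on average.

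Ac78C, the cyclase, was at 5.44, 7.37 and 4.05 CPM in the controls, at 5.92, 4.89 and 6.49 CPM after YT521 depletion and at 2.44, 1.84 and 2.58 CPM after CG6422 depletion. YT521 and control libraries overlapped, and CG6422 libraries lay below both. It was at 2.39, 1.68 and 2.36 CPM after Fl2d depletion, at 3.46, 2.44 and 3.09 CPM after the double depletion, at 4.196, 3.10 and 4.05 CPM after Ime4 depletion and at 4.41, 3.84 and 3.82 CPM after CG7818 depletion. Fl2d and double-depletion libraries were all below the controls, and those of the single Ime4 and CG7818 depletions overlapped the lowest control. Ac78C fell after Fl2d depletion (log2 difference -1.42, SE 0.21, adjusted p = 1.9e-05) and after the double depletion (-0.93, SE 0.19, adjusted p = 0.00287). For Ime4 and CG7818 alone the differences were -0.60 (adjusted p = 0.0758) and -0.51 (adjusted p = 0.168). The Ime4 difference passed with no filter on low counts (adjusted p = 0.00447), without the 2 libraries low in mitochondrial ribosomal RNA (0.0405) and without Control replicate 3 (0.0206). The CG7818 difference passed with no filter (adjusted p = 0.0323).

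The channel gene rpk was at 0.575, 0.487 and 0.593 CPM in the controls, at 0.571, 0.544 and 0.646 CPM after YT521 depletion and at 1.19, 2.07 and 1.22 CPM after CG6422 depletion. Control and YT521 libraries overlapped, and CG6422 libraries were all higher. It was at 0.885, 0.752 and 1.29 CPM after Ime4 depletion, at 1.61, 0.903 and 1.23 CPM after CG7818 depletion, at 1.502, 1.66 and 0.998 CPM after the double depletion and at 1.29, 1.73 and 1.26 CPM after Fl2d depletion. Each writer group lay wholly above the controls. The gene rose after Fl2d depletion (log2 difference 1.38, SE 0.31, adjusted p = 0.00114), after the double depletion (1.35, SE 0.30, adjusted p = 0.00529) and after CG7818 depletion (1.19, SE 0.31, adjusted p = 0.0435). The CG7818 call was lost without CG7818 replicate 1 or 3 (adjusted p = 0.234 and 0.106) and without Control replicate 1, 2 or 3 (adjusted p = 0.114, 0.172 and 0.0934). With Ime4 depletion the difference was 0.82 and did not pass (adjusted p = 0.174).

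The receptor gene cGlr2 was at 0.531, 1.04 and 0.939 CPM in the controls, at 0.776, 0.979 and 0.538 CPM after YT521 depletion and at 1.91, 1.99 and 1.31 CPM after CG6422 depletion. The CG6422 libraries were above all the others of these 3 groups. It was at 1.13, 1.57 and 1.66 CPM after the double depletion, at 1.15, 1.92 and 0.905 CPM after Fl2d depletion, at 1.39, 0.884 and 0.714 CPM after Ime4 depletion and at 0.975, 1.08 and 0.773 CPM after CG7818 depletion. Among the writer groups the double depletion alone did not overlap the controls. Its difference of 0.76 did not pass (95% interval 0.12 to 1.40, adjusted p = 0.120), nor did that of Fl2d (0.64, 95% interval -0.02 to 1.31, adjusted p = 0.114). The double-depletion difference passed with the libraries of the comparison alone (adjusted p = 0.0480). With Ime4 and CG7818 alone the differences were 0.26 and 0.15.

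CG4793 was the most abundant of the 6 genes, at 19.2, 16.2 and 15.5 CPM in the controls, at 34.1, 30.9 and 28.5 CPM after YT521 depletion and at 10.8, 9.56 and 8.26 CPM after CG6422 depletion. These 3 groups did not overlap. It was at 8.03, 7.25 and 8.75 CPM after Fl2d depletion, at 13.5, 13.7 and 13.5 CPM after Ime4 depletion, at 18.3, 16.5 and 14.7 CPM after CG7818 depletion and at 15.9, 12.95 and 14.1 CPM after the double depletion. It fell after Fl2d depletion (log2 difference -1.08, SE 0.11, adjusted p = 2.31e-07). The other writer differences did not pass, at -0.33 for Ime4, -0.04 for CG7818 and -0.25 for the double depletion. The Ime4 difference passed with no filter on low counts (adjusted p = 0.0214), with the libraries of the comparison alone (adjusted p = 0.0290) and with a replicate block (adjusted p = 0.0251).

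CG17930 was at 1.64, 1.67 and 2.13 CPM in the controls, at 3.31, 3.84 and 3.70 CPM after YT521 depletion and at 1.10, 1.11 and 1.17 CPM after CG6422 depletion. YT521 libraries were all above and CG6422 libraries all below the controls. It was at 0.813, 1.63 and 1.26 CPM after Fl2d depletion, at 2.16, 2.17 and 1.14 CPM after Ime4 depletion, at 2.37, 1.63 and 1.68 CPM after CG7818 depletion and at 2.17, 1.40 and 2.00 CPM after the double depletion. The Fl2d difference was -0.54 (95% interval -1.08 to 0.00, adjusted p = 0.102), and it passed without Fl2d replicate 2 (-0.80, adjusted p = 0.0359). Without Fl2d replicate 1 it was -0.31 (adjusted p = 0.402), and without the 2 libraries low in mitochondrial ribosomal RNA it was -0.32 (adjusted p = 0.389). For Ime4, CG7818 and the double depletion the differences were 0.04, 0.08 and 0.05, with 95% intervals of -0.44 to 0.53, -0.40 to 0.57 and -0.44 to 0.53.

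Counted over the 6 genes, 4 passed after Fl2d depletion, where 41.3% of all genes tested did, with 3 lower (19.9% of all genes) and rpk higher (21.4%). The summed plasmatocyte markers were at 854 to 905 CPM in Fl2d libraries, above the 780 to 841 CPM of the controls, and their part in these calls was not tested. After the double depletion 2 passed, Ac78C lower and rpk higher, where 11.4% of all genes did (5.13% lower and 6.29% higher). After CG7818 depletion 2 passed, Obp44a lower and rpk higher, where 2.32% of all genes did (1.22% lower and 1.10% higher). After Ime4 depletion none passed with edgeR or with DESeq2, where 3.72% of all genes did with edgeR. An unadjusted p under 0.05 was found for 4 of the 6. The share of all genes under that unadjusted threshold was not worked out, so no result is read from this count. Libraries did not overlap those of the control for 5 of the 6 genes after Fl2d depletion (45.8% of all genes), 4 after the double depletion (34.8%), 3 after Ime4 depletion (27.5%) and 2 after CG7818 depletion (22.8%). All 4 of these comparisons use the same control libraries. The Fl2d and double-depletion calls held in all 12 alternative analyses, which include leaving out each library of the comparison.

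**Figure D2:**
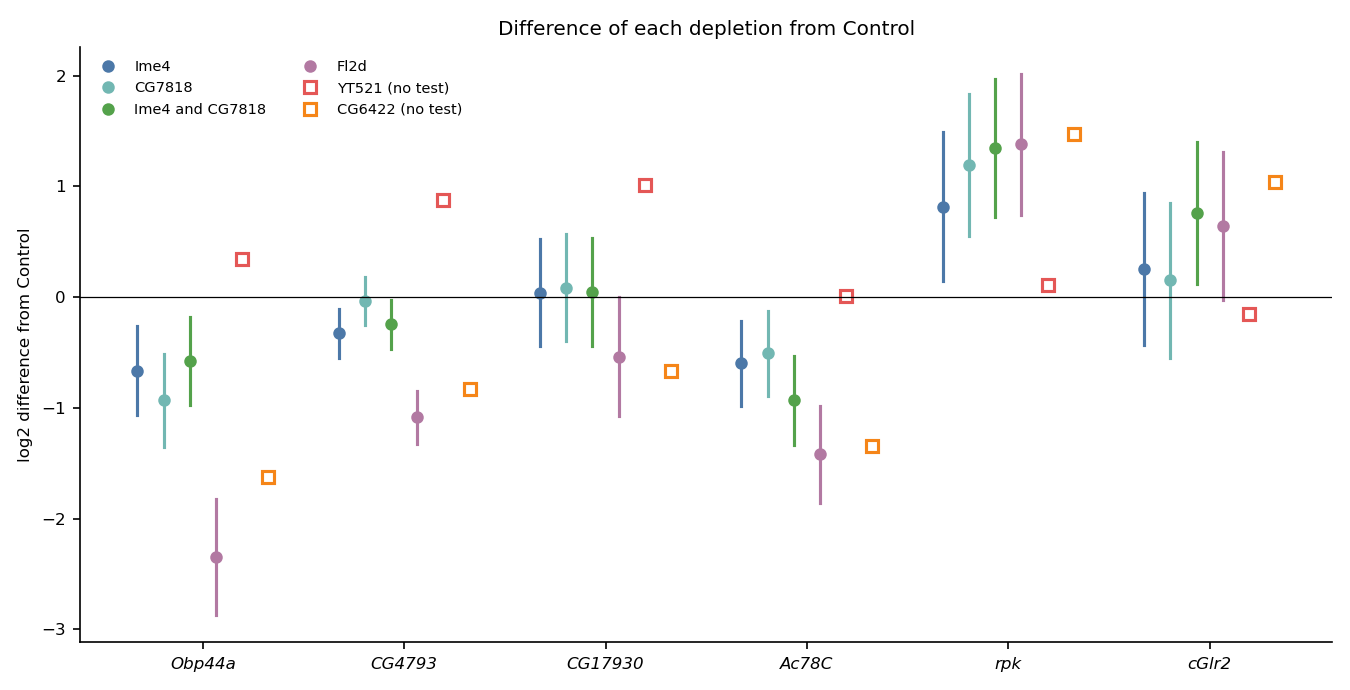
Log2 difference of each depletion from Control for the 6 genes, with 95% intervals derived from the F statistic of the edgeR fit for the 4 writer depletions (filled circles) and no interval for the 2 reader depletions (open squares), on which the genes were chosen. The largest writer difference is that of Obp44a after Fl2d depletion, at -2.35, and the writer intervals of rpk all lie above 0.

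The writer depletions were also compared with each other, without the controls. Obp44a and CG4793 were lower after Fl2d depletion than after the double depletion, by log2 differences of -1.77 (SE 0.28, adjusted p = 4.5e-05) and -0.84 (SE 0.12, adjusted p = 1.37e-05). These are 2 of the 6 genes, where 36.9% of all genes passed. The difference of rpk in that comparison was 0.03 (95% interval -0.50 to 0.56) and that of Ac78C was -0.49 (95% interval -0.97 to 0.00, adjusted p = 0.109). With no filter on low counts Ac78C and CG17930 also passed (adjusted p = 0.0395 and 0.0489), and CG17930 passed without Fl2d replicate 2 or replicate 2 of the double depletion (adjusted p = 0.0287 and 0.0392). Without the 2 libraries low in mitochondrial ribosomal RNA the differences were -2.35 for Obp44a and -0.37 for CG17930. None of the 6 passed between CG7818 and Ime4 depletion, between the double and Ime4 depletion, or between the double and CG7818 depletion, with edgeR or with DESeq2. In those 3 comparisons 0.502%, 0.156% and 2.17% of all genes passed with edgeR. Of the 6 genes, 1, 0 and 0 had an unadjusted p under 0.05, again with no share of all genes to set beside these counts.

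Ordered by group mean, YT521 was highest and either Fl2d or CG6422 lowest for the 4 genes higher after YT521 depletion. Fl2d and CG6422 were neighbours in that order for each of the 4, and their libraries overlapped. For rpk and cGlr2 the order ended with CG6422 highest, and YT521 and Control, which overlapped, were the 2 lowest. Neighbours in the order of cGlr2 and of Ac78C overlapped throughout, so only groups farther apart in their orders were separate.

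In the BDGP6 build used by the authors, with gene models of Ensembl release 115, Obp44a lies on the minus strand at chr2R:8134170-8135315 and shares 205 exon bases, 19.1% of its exons, with Pabp2 on the other strand. CG17930 lies at chr3R:16327849-16329622 on the plus strand within an intron of Sulf1, which is on the other strand, and shares no exon base with it. CG4793, at chr2L:15923395-15926287 on the plus strand, lies within an intron of beat-Ib, which had 7 counts over all 21 libraries. The exons of rpk, at chr3R:4645981-4648884 on the plus strand, share 1531 bases, 60.4% of their length, with an antisense RNA gene that had 1 count. Ac78C, at chr3L:21136447-21171930 with 25 exon blocks, and cGlr2, at chr2R:24965275-24967298, both on the minus strand, overlap no annotated gene. Whether reads were counted by strand is not stated, so reads from overlapping genes may not have been separated. Reads in shared exon bases may instead have been set aside as ambiguous, which 0.723% to 0.893% of all reads in the tables were. Levels of Obp44a and rpk could then be too low.

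Sulf1, a secreted enzyme that trims heparan sulfate, was at 91.8 ± 3.24 CPM in controls, 107 ± 5.11 after YT521 depletion, 67.7 ± 3.46 after CG6422 depletion, 61.4 ± 8.89 after Fl2d depletion and 77.9 ± 4.72 after the double depletion (SD, n = 3 each). Sulf1 was higher after YT521 than after CG6422 depletion (log2 difference 0.66, adjusted p = 3.6e-06) and fell from control after CG6422 depletion (-0.44, adjusted p = 0.00069) and Fl2d depletion (-0.58, adjusted p = 5.1e-06). Its difference from control after YT521 depletion was 0.22 and did not pass (adjusted p = 0.0828). Sulf1 also passed in the double depletion (-0.24, adjusted p = 0.0461), a call lost without replicate 1 or 2 of the double depletion or any 1 of the Control replicates (adjusted p = 0.0589 to 0.176). CG17930 passed in neither of these writer comparisons, with differences of -0.54 for Fl2d and 0.05 for the double depletion. CG17930 counts were 1.98% ± 0.369 of Sulf1 counts in controls, 3.39% ± 0.289 after YT521 depletion, 1.67% ± 0.0818 after CG6422 depletion and 2.00% ± 0.582 after Fl2d depletion. In this share all YT521 libraries lay above the highest library of the other 3 groups. Pabp2, a nuclear poly(A)-binding protein, was at 143 ± 5.86 CPM in controls, 143 ± 8.41 after YT521 depletion, 150 ± 11.7 after CG6422 depletion and 122 ± 3.45 after Fl2d depletion. Obp44a counts were 2.09% ± 0.192 of Pabp2 counts in controls, 2.67% ± 0.521 after YT521 depletion, 0.643% ± 0.119 after CG6422 depletion and 0.474% ± 0.280 after Fl2d depletion. The part of the overlapping genes in these differences was not tested.

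**Figure D3:**
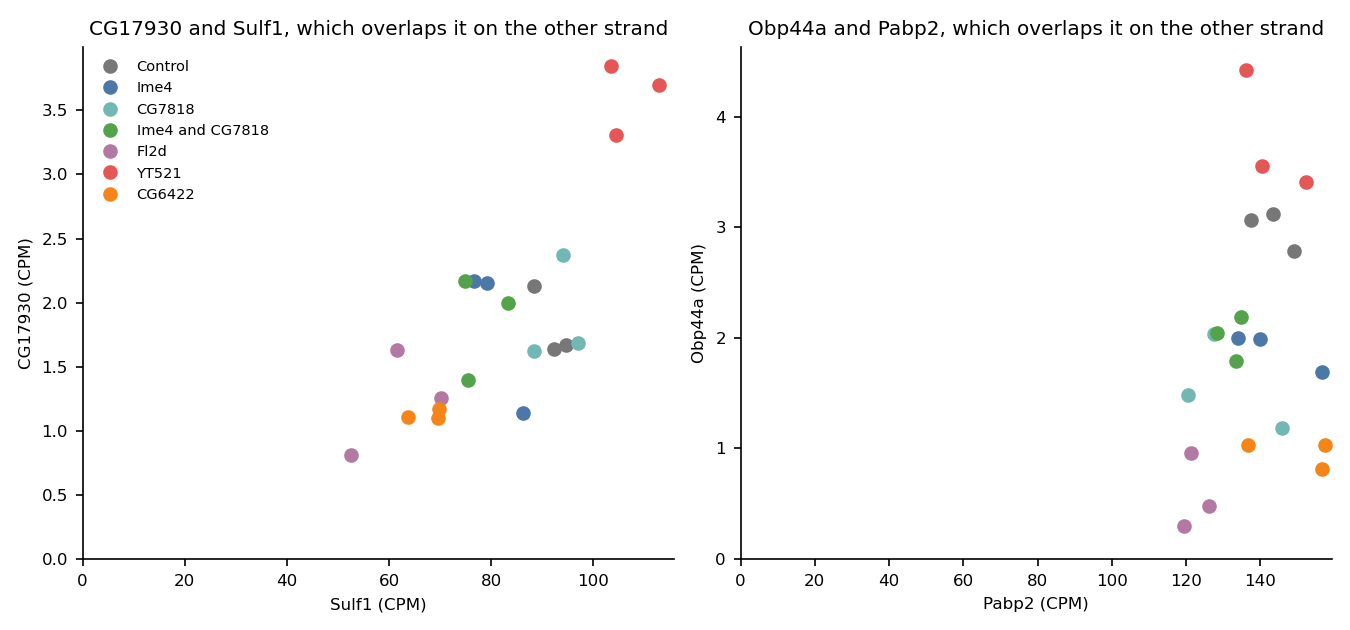
CPM of CG17930 against Sulf1 (left) and of Obp44a against Pabp2 (right), 1 point per library, coloured by group, with linear axes from 0. Sulf1 spans both reader groups along with CG17930, from 67.7 CPM on average after CG6422 depletion to 107 after YT521 depletion, whereas Pabp2 is at 150 and 143 in those groups.

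Other genes of the same families and pathways were read from 4 lists. Of 50 other odorant-binding protein genes 4 were tested, of 30 other DEG/ENaC channel genes 5, of 27 other cAMP signalling genes 19, and of 13 other genes of the cGLR and Sting pathway 11. Between the reader depletions, 11 of these 39 passed, all higher after YT521 than after CG6422 depletion, where 6.67% of all genes were higher and 6.21% lower. Obp99a, among the 11, was kept by the filter on low counts only through its YT521 libraries.

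Among the odorant-binding protein genes 2 of 4 were higher after YT521 than after CG6422 depletion. Obp18a was at 77.0 ± 9.65 and 50.6 ± 1.56 CPM (log2 difference 0.61, adjusted p = 6.1e-05), and Obp99a at 0.846 ± 0.101 and 0.208 ± 0.0660 CPM (2.02, adjusted p = 0.000104). Both also rose from control after YT521 depletion (0.61 and 1.73, adjusted p = 0.000172 and 0.000731), where 3.27% of all genes did. Obp99a had 18 to 26 counts per library after YT521 depletion and at most 8 in any other library. It met the minimum count of 10 only through the YT521 group, so the filter favoured a high level there and its calls are a description. After CG6422 depletion the differences of Obp18a and Obp99a from control were 0.01 and -0.29 and did not pass. Obp44a, by contrast, had its larger difference from control after CG6422 depletion. Among the channel genes 1 of 5 passed. The channel subunit gene ppk18 was at 1.602 ± 0.119 CPM after YT521 and 0.922 ± 0.127 CPM after CG6422 depletion (0.79, adjusted p = 0.00844), the opposite direction to rpk.

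In cAMP signalling 6 of 19 genes were higher after YT521 than after CG6422 depletion and none was lower, with a median log2 difference of 0.11 over the list and 0.00 over all genes. The phosphodiesterase gene dnc, whose product degrades cAMP, was at 14.02 ± 1.39 and 9.35 ± 0.941 CPM (0.59, adjusted p = 8.8e-05). Epac, a cAMP-activated exchange factor, was at 23.4 ± 1.10 and 18.4 ± 0.611 CPM (0.35, adjusted p = 0.000361). Pka-R2, a regulatory subunit of protein kinase A, was at 37.2 ± 6.07 and 25.8 ± 3.68 CPM (0.53, adjusted p = 0.0029). The phosphodiesterase gene Pde8 passed with a difference of 0.17 (adjusted p = 0.0292), a call lost without CG6422 replicate 1, 2 or 3 or YT521 replicate 2 or 3 (adjusted p = 0.0573, 0.0926, 0.0755, 0.163 and 0.114). It was also lost without the 2 libraries low in mitochondrial ribosomal RNA and with the libraries of the comparison alone (adjusted p = 0.125 and 0.118). The other 2, Ac13E and Pka-C3, were singled out after their values were seen. The cyclase gene Ac13E differed by 0.36 (adjusted p = 0.0295) and the kinase gene Pka-C3 by 1.01 (adjusted p = 0.0413). The Ac13E call was lost without CG6422 replicate 2 or 3 or YT521 replicate 2 or 3 (adjusted p = 0.124, 0.0879, 0.130 and 0.0753). The Pka-C3 call was lost without CG6422 replicate 1, 2 or 3 or YT521 replicate 1 or 3 (adjusted p = 0.122, 0.0867, 0.0869, 0.0904 and 0.173). The calls of Ac13E and Pka-C3 were also lost with DESeq2 (adjusted p = 0.0578 and 0.0583) and with the libraries of the comparison alone (adjusted p = 0.0733 and 0.0613). That of Ac13E was lost as well without the 2 libraries low in mitochondrial ribosomal RNA (adjusted p = 0.107). The cyclase genes rut, Ac3 and Ac76E did not pass, with differences of 0.24, 0.01 and -0.15, against 1.35 for Ac78C.

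After Fl2d depletion 14 of the 19 cAMP signalling genes fell and 1, Pde11, rose, where 19.9% of all genes fell and 21.4% rose. The median of the list was -0.22, against 0.01 over all genes. In analyses added after the data were seen, 10 of the 19 fell without the 2 libraries low in mitochondrial ribosomal RNA, 9 without Fl2d replicate 1 alone, 8 without Control replicate 2 and 7 with the 6 libraries of the comparison fitted alone. Over all genes, 3451 were called in the main fit, 2224 with the libraries of the comparison alone and 2791 to 3457 with a library left out. Whether the list lost more calls than all genes did was not tested. CrebA, a transcription factor of the CREB family, fell by 0.69 on the log2 scale (adjusted p = 0.00042) and dnc by 0.64 (adjusted p = 2.2e-05). All 4 other cyclase genes of the list that were tested fell, by 0.29 for rut, 0.26 for Ac3, 0.34 for Ac13E and 0.21 for Ac76E, each less than the 1.42 of Ac78C. The Ac3 call was lost without Fl2d replicate 1 or Control replicate 1 (adjusted p = 0.177 and 0.181), the Ac13E call without Fl2d replicate 1 or Control replicate 1 or 3 (adjusted p = 0.0850, 0.0975 and 0.112), that of Pde11 without Control replicate 3 (adjusted p = 0.0541) and that of Ac76E without Control replicate 2 (adjusted p = 0.0562).

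In the cGLR and Sting list 2 of 11 genes were higher after YT521 than after CG6422 depletion and none was lower. Relish (Rel), an NF-kappaB factor, differed by 0.24 (adjusted p = 0.0057) and key, a subunit of the kinase that activates it, by 0.16 (adjusted p = 0.0287). The call of key was lost without CG6422 replicate 2 or 3 or YT521 replicate 2 or 3 (adjusted p = 0.102, 0.0788, 0.0831 and 0.0822). It was also lost with no filter on low counts, without the 2 libraries low in mitochondrial ribosomal RNA and with the libraries of the comparison alone (adjusted p = 0.0682, 0.0574 and 0.0595). From control, CG6422 depletion lowered 3 of the 11, namely Sting (-0.31, adjusted p = 0.0117), Rel (-0.27, adjusted p = 0.00244) and key (-0.23, adjusted p = 0.00228), where 10.2% of all genes fell. It raised 2, where 8.88% of all genes rose, namely Nazo, an antiviral gene induced through Sting (0.46, adjusted p = 0.00203), and Srg3 (0.21, adjusted p = 0.0187). The Sting call was lost without Control replicate 1 (adjusted p = 0.0515), and that of Srg3 without CG6422 replicate 2 or Control replicate 1 or 2 (adjusted p = 0.126, 0.0647 and 0.0747). Nazo did not follow cGlr2 in the other groups. It rose from control after YT521 depletion as well (0.34, called in 8 of 12 alternatives) and fell after Fl2d depletion (-0.38, called in all 12). The differences of cGlr2 there were -0.15 and 0.64. The other cGAS-like receptor gene tested, cGlr1, was at 0.470 ± 0.184 CPM after CG6422 and 0.301 ± 0.0410 CPM after YT521 depletion, and the difference did not pass (adjusted p = 0.272). After Fl2d depletion 5 of the 11 genes of this list fell and 2 rose, where 19.9% of all genes fell and 21.4% rose. The median of this list was -0.16, against 0.01 over all genes, so a shift to lower levels was not limited to the cAMP list.

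**Figure D4:**
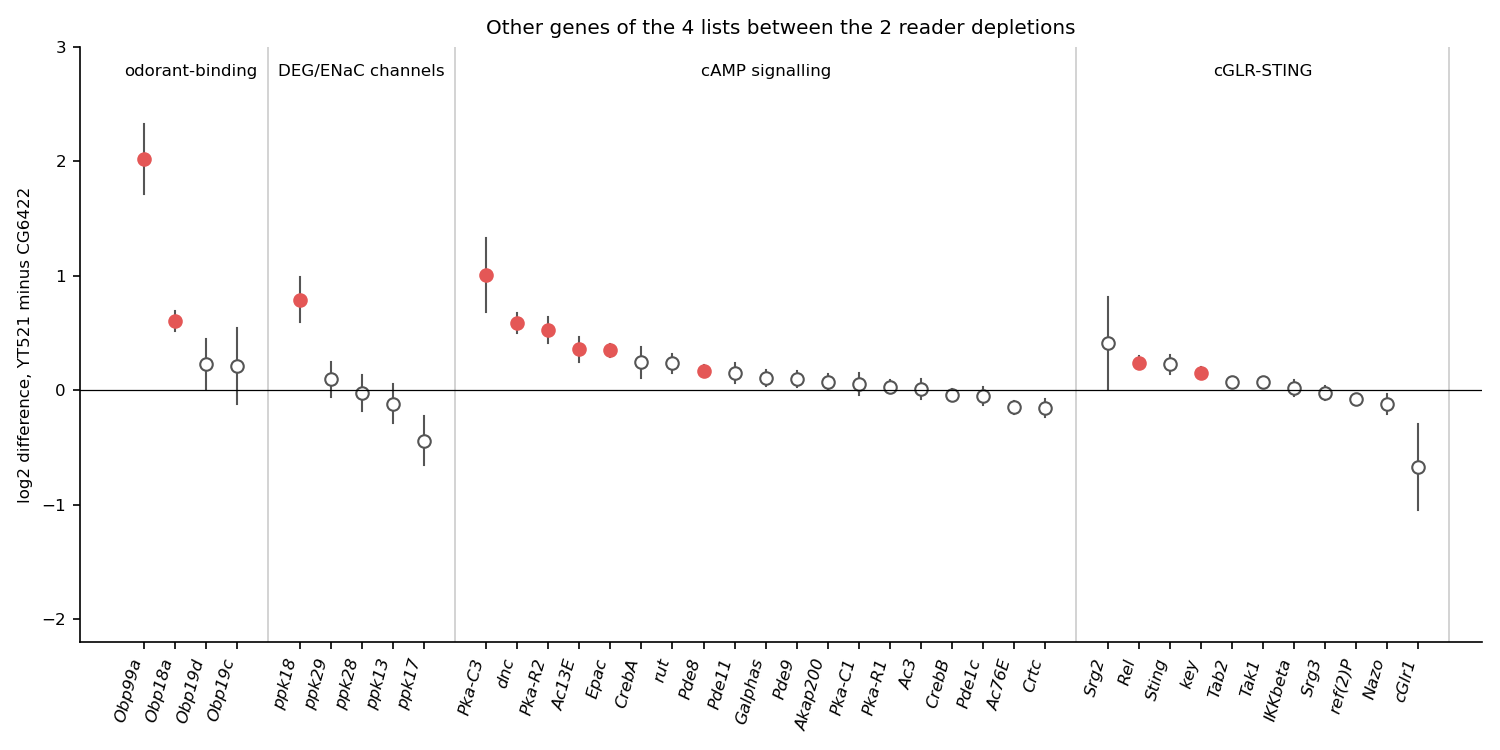
Log2 difference, YT521 minus CG6422, of the 39 other tested genes of the 4 lists, with bars of 1 SE, filled where the adjusted p was under 0.05. The 11 filled points all lie above 0, up to 2.02 for Obp99a, a gene kept by the filter on low counts only through its YT521 libraries.

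For each of the 6 genes the 2 tested genes whose log2 CPM followed it most closely over the 21 libraries were taken, by Pearson's r. These are descriptions over libraries that share depth and groups, the reader groups included, and carry no p. CG4793 was followed by SP1173 (r = 0.94, Spearman's rho = 0.94) and CG33080 (r = 0.92, rho = 0.93). SP1173 was at 36.5 CPM in controls, 56.4 after YT521, 21.6 after CG6422 and 17.1 after Fl2d depletion. Ac78C was followed by CG5399 (r = 0.94), at 125 CPM in controls, 148 after YT521, 75.1 after CG6422 and 73.3 after Fl2d depletion, and by the anion exchanger gene Ndae1 (r = 0.91). Obp44a was followed by CG5191 (r = 0.91) and CG13117 (r = 0.89), whose CG6422 means of 39.0 and 141 CPM stood beside control means of 46.5 and 166 CPM. CG17930 was followed by CG13229 (r = 0.87) and FBgn0263039 (r = 0.86).

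The glycosyltransferase gene Ugt302C1 (r = 0.88) and CG4630 (r = 0.88) followed rpk. Ugt302C1 was at 33.9 CPM in controls, 32.3 after YT521, 48.2 after CG6422, 53.7 after the double and 56.5 after Fl2d depletion. For cGlr2 the closest were CG5510 (r = 0.80) and CG43245 (r = 0.79). Among the 6 genes themselves, r over the 21 libraries ran from 0.85, for Obp44a with CG4793, to -0.79, for Ac78C with rpk. Without the 6 reader libraries these were 0.82 and -0.69 over 15 libraries, while CG17930 with cGlr2 went from -0.41 to 0.09.

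**Figure D5:**
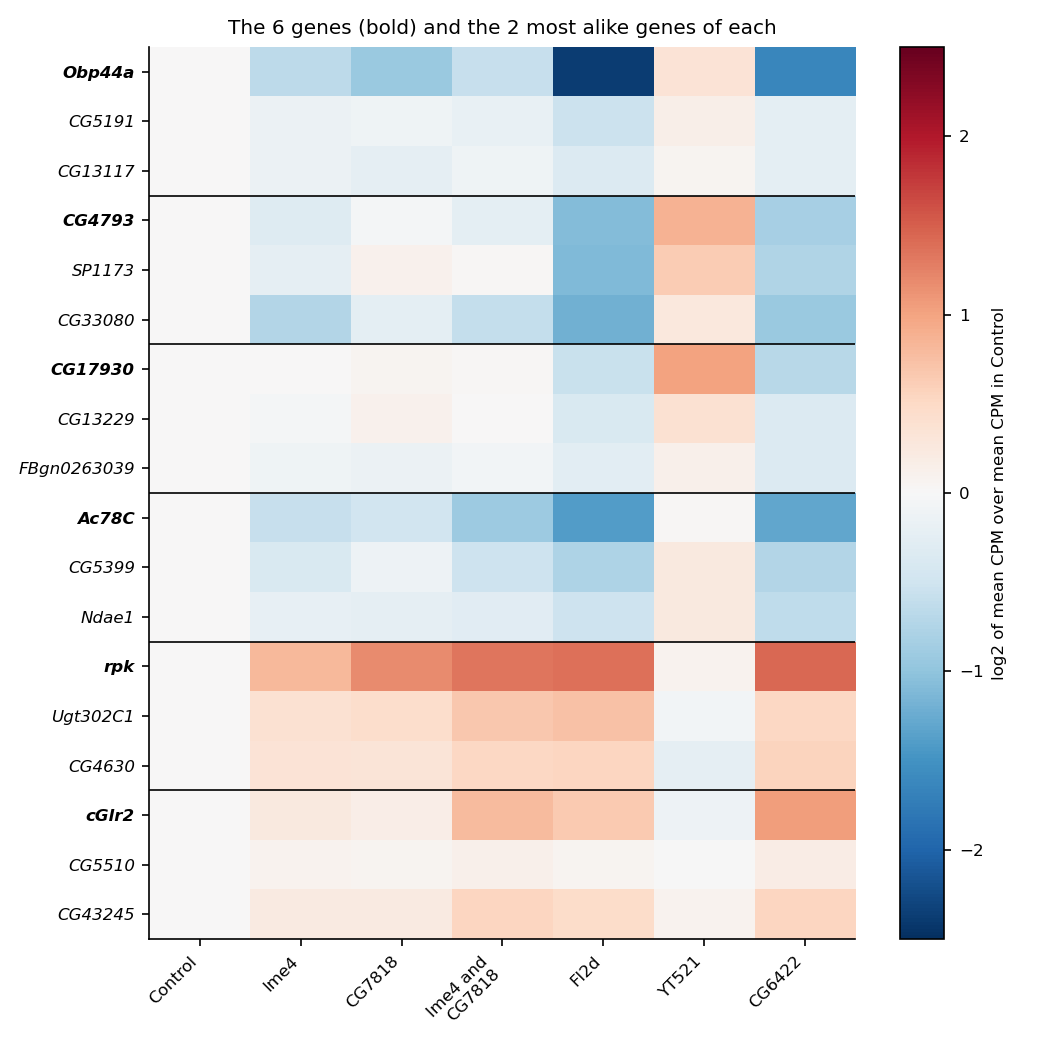
Log2 of each group's mean CPM over the Control mean (colour scale symmetric about 0) for the 6 genes, in bold, and the 2 genes closest to each by Pearson's r. CG5191, under Obp44a, is at 39.0 CPM after CG6422 depletion against 46.5 in controls, where Obp44a is at 0.959 against 2.99. SP1173, under CG4793, is at 39.3 CPM after CG7818 depletion against 36.5 in controls, where CG4793 is at 16.5 against 16.98.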

How the data were processed

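RNA-seq read counts per gene of 21 S2R+ libraries (7 groups of 3) were used as deposited by the authors. Per the submitters' processing notes the genome build was BDGP6 and the tools named are DESeq2 1.6.3, STAR 2.4.0h, CASAVA 1.8.4 and HTSeq 0.6.1. The 5 summary lines of each table (unassigned reads) were left out. Reads without a feature came to 1.46% to 1.91% and reads aligned to several places to 11.0% to 18.7% of all reads in the tables. CPM values are counts per 1000000 of the effective library size, which is the total over the genes tested multiplied by the TMM factor. These factors ran from 0.957 to 1.079, so CPM totals differ between libraries.

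All 21 libraries were fitted together with edgeR 4.0.16 (R 4.3.3), with TMM scaling, a minimum count of 10 in filterByExpr (8360 genes kept), glmQLFit and glmQLFTest, and Benjamini-Hochberg adjustment over all genes tested, with a call at an adjusted p under 0.05. All 6 genes passed the filter. The script was tested on simulated data. Alternatives were the size factors of DESeq2 within edgeR, no filter, DESeq2 1.42.0, a replicate block, the libraries of a comparison alone, omission of the 2 libraries low in mitochondrial ribosomal RNA, and omission of each library in turn. The members and lists were chosen with earlier results of these data known.

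Named genes are the 6 genes, the depleted genes, genes overlapping the 6 and the nearest tested gene on each side, up to 4 genes of each list with the smallest p in a contrast, and the 2 genes closest to each by Pearson's r of log2 CPM (prior count of 2). Of the identifiers, 17252 of 17558 had an entry in Ensembl release 115 (assembly BDGP6.54). Same-numbered libraries deviated together more often than other pairs, but not throughout. The replicate numbers were not taken to pair the libraries in the main fit, and a replicate block was run as an alternative. Sequences and promoter motifs were not analysed here.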

Additional observations from a re-analysis of the deposited data

How the results depend on the processing

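The Fl2d and double-depletion calls of the 6 genes held in all 12 alternatives. Beside 0 of the 6 called after Ime4 depletion, 3 were called with no filter on low counts, 2 without the libraries low in mitochondrial ribosomal RNA, 2 with the libraries of the comparison alone, and 1, CG4793, with the replicate block (-0.33, adjusted p = 0.0251). With the libraries alone 4 were called in the double depletion, and with no filter 4 were called between Fl2d and the double depletion. Calls over all genes moved as well. With the libraries alone they went from 311 to 614 for Ime4 and from 955 to 1634 for the double depletion, and with the replicate block to 414 for Ime4. The number of genes tested can differ from 8360 in these settings, and is larger with no filter, so these member counts are not read against a share of all genes. When each library was left out in turn, the number called was 0 to 1 for Ime4, 0 to 2 for CG7818, 2 for the double depletion and 4 to 5 for Fl2d against control, and 2 to 3 for Fl2d against the double depletion. The number of pathway genes called was then 7 to 11 between the readers, 3 to 6 for YT521 (7 with all libraries) and 6 to 11 for CG6422 against control (11 with all libraries).

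Same-numbered libraries had correlations of deviations from -0.66 to 0.80, with a median of 0.23 (40 of 63 over 0.1). Libraries with different numbers had correlations from -0.64 to 0.69, with a median of -0.11 (38 of 126 over 0.1). Same-numbered libraries thus tended to deviate together, which the main fit does not model. The replicate block is given as an alternative without a claim of pairing. With the block, genes called went from 42 to 64 between CG7818 and Ime4 and from 13 to 22 between the double and Ime4 depletion.

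Over all genes, the number called against control was 311 for Ime4 (607 without the low libraries, 614 with the libraries alone, 135 to 193 with 1 library left out), 194 for CG7818 (340 without the low libraries, 93 to 122 with 1 left out), 955 for the double depletion (1634 alone, 463 to 753) and 3451 for Fl2d (2224 alone, 2791 to 3457). Between CG7818 and Ime4, 42 genes became 176 with no filter, 223 without the low libraries, 227 alone and 120 with DESeq2 (16 to 32 with 1 left out). Between the double and Ime4 depletion, 13 became 76, 30, 181 and 46 in that order (6 to 10). Between the double and CG7818 depletion, 181 became 320, 375, 630 and 308 (23 to 61). Between Fl2d and the double depletion 3083 became 1944 alone (2269 to 3217), and between the readers 1077 became 684 alone (677 to 1017). Leaving 1 library out gave 243 to 492 for YT521 against 545, and 844 to 1423 for CG6422 against 1595. The cause of these changes was not tested.

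In the writer comparisons signs changed for 14 differences of the 6 genes, none of them called, and in each case with 1 library left out. For CG17930 the differences then ranged from -0.10 to 0.27 (Ime4 against control), -0.12 to 0.20 (CG7818 against control), -0.095 to 0.22 (double against control), -0.18 to 0.19 (CG7818 against Ime4), -0.22 to 0.18 (double against Ime4) and -0.17 to 0.17 (double against CG7818). For cGlr2 they ranged from -0.083 to 0.48 (Ime4 against control), -0.080 to 0.38 (CG7818 against control), -0.28 to 0.23 (CG7818 against Ime4) and -0.49 to 0.074 (Fl2d against double). For CG4793 they ranged from -0.12 to 0.058 (CG7818 against control), for Ac78C from -0.032 to 0.18 (CG7818 against Ime4), and for rpk from -0.029 to 0.39 (double against CG7818) and -0.15 to 0.17 (Fl2d against double). Among the reader differences, which carry no test, that of Ac78C between YT521 depletion and control (0.01) ranged from -0.16 to 0.27 with 1 library left out and was -0.0040 with the replicate block, and that of cGlr2 (-0.15) ranged from -0.39 to 0.073. Counts of 12 to 54 per library for rpk and 12 to 52 for cGlr2 limit what these comparisons can detect.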

Other observations

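The genes next to the 6 on the chromosome were read in the same fit. Tep1, a thioester-containing protein of the complement-like family, is the nearest tested gene below CG4793, at 29583 bases. It was at 0.609 ± 0.165 CPM in controls, 0.854 ± 0.317 after YT521 depletion, 0.221 ± 0.0961 after CG6422 depletion and 0.228 ± 0.0797 after Fl2d depletion (SD, n = 3 each). Tep1 was higher after YT521 than after CG6422 depletion (log2 difference 1.95, adjusted p = 0.00111), and fell from control after CG6422 depletion (-1.43, adjusted p = 0.0173) and after Fl2d depletion (-1.38, adjusted p = 0.011). Both calls against control were lost without Control replicate 1 (adjusted p = 0.0829 and 0.0594), the first also without CG6422 replicate 1 or 2 (adjusted p = 0.0615 and 0.0786) and the second without Fl2d replicate 1 (adjusted p = 0.0604). The second was lost as well without the 2 libraries low in mitochondrial ribosomal RNA (adjusted p = 0.0549). Ca-alpha1D, the nearest tested gene on the other side of CG4793, differed by -0.39 between the readers and did not pass (adjusted p = 0.331).

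Lpin, a phosphatidate phosphatase gene 1670 bases from Obp44a on the same strand, fell after CG6422 depletion (-0.30, adjusted p = 0.00203) and after Fl2d depletion (-0.39, adjusted p = 3.5e-05). It was higher after YT521 than after CG6422 depletion (0.25, adjusted p = 0.00907), a call lost without CG6422 replicate 1 or YT521 replicate 2 (adjusted p = 0.0543 and 0.0634). The libraries of the comparison alone also lost this call (adjusted p = 0.0634). Socs44A, 4693 bases from Obp44a on the other strand, was lower after YT521 than after CG6422 depletion (-0.17, adjusted p = 0.0113), a call lost without YT521 replicate 2 (adjusted p = 0.0945). That call was also lost with no filter on low counts, without the 2 libraries low in mitochondrial ribosomal RNA and with the libraries of the comparison alone (adjusted p = 0.0980, 0.0649 and 0.0962). Socs44A rose after Fl2d depletion (0.15, adjusted p = 0.00889), a call lost with the libraries of the comparison alone (adjusted p = 0.0804) and held in 10 of the 12 alternatives.

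Next to CG17930, CG6901 lies at 2720 bases and pad at 12695 bases, both on the same strand. CG6901 was higher after YT521 than after CG6422 depletion (0.73, adjusted p = 0.0493), a call lost without any 1 of the 3 YT521 replicates or CG6422 replicate 1 or 2 (adjusted p = 0.0775 to 0.214). It rose after Fl2d depletion (0.59, adjusted p = 0.0468), the opposite direction to CG17930, a call lost without any 1 of the 3 Fl2d replicates or Control replicate 1 or 2 (adjusted p = 0.0525 to 0.197). The 2 calls of CG6901 were also lost with DESeq2 (adjusted p = 0.106 and 0.113), and each held in only 2 of the 12 alternatives. The gene pad fell after Fl2d depletion (-0.41, adjusted p = 0.00372), and its difference between the readers was -0.02 (adjusted p = 0.931).

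Karybeta3, 291 bases from rpk on the same strand, differed by -0.03 between the readers and by 0.03 between Fl2d depletion and control, and neither difference passed (adjusted p = 0.707 and 0.606). Dlip2, 325 bases from rpk on the other strand, rose after CG6422 depletion (0.27, adjusted p = 0.0145) and after Fl2d depletion (0.22, adjusted p = 0.0249). The first call was lost without CG6422 replicate 3 or Control replicate 2 or 3 (adjusted p = 0.0538, 0.116 and 0.0652), and the second without Fl2d replicate 1 or 2 or Control replicate 2 or 3 (adjusted p = 0.0687, 0.0589, 0.163 and 0.108). Over the 12 alternatives the first call of Dlip2 held in 8 and the second in 5. Its difference between the readers was -0.07 (adjusted p = 0.604). CG10565, 93 bases from Ac78C on the same strand, differed by 0.00 between the readers and rose after Fl2d depletion (0.31, adjusted p = 6.6e-05), the opposite direction to Ac78C. The gene chb, 922 bases from Ac78C on the other strand, fell after CG6422 depletion (-0.17, adjusted p = 0.0332) and after Fl2d depletion (-0.18, adjusted p = 0.0120). Its CG6422 call was lost without CG6422 replicate 2 or 3 or Control replicate 2 or 3 (adjusted p = 0.196, 0.0676, 0.0938 and 0.104), and with no filter on low counts (adjusted p = 0.0576). CG2765, 198 bases from cGlr2 on the same strand, was higher after YT521 than after CG6422 depletion (0.23, adjusted p = 0.00249), the opposite direction to cGlr2. CG3776, 2379 bases from cGlr2 on the other strand, differed by -0.07 between the readers and did not pass (adjusted p = 0.588).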
